A study of Mus musculus with 48 samples.

Results

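The genes described here are 8 mouse genes that neutrophils express: S100a8, S100a9, Mmp8, Ly6g, Csf3r, Ncf1, Ncf4 and Itgam. They were found by the Ensembl identifier of each symbol among the 55416 genes counted in every liver. Reads of all 8 were counted, and 7 passed the filter on low counts that left 15711 genes for testing. Ly6g did not pass it. The study asked how damaging forms of LXRα, a cholesterol-sensing nuclear receptor encoded by Nr1h3, change gene expression in the liver of mice on a western diet.

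RNA from whole liver of 48 mice was sequenced, 8 of each genotype. In the first study the mice carried the dominant-negative W441R substitution in LXRα (DN), and in the second the gene was knocked out (KO). Each study had wild-type (DN:WT, KO:WT), heterozygous (DN:HET, KO:HET) and homozygous (DN:HOM, KO:HOM) offspring of heterozygous parents. All mice went on to the western diet at about 8 weeks of age and stayed on it for 8 weeks, so no group shows a liver without this diet. The labels give the strain of every mouse as C57Bl/6J. Both alleles were germline, so leukocytes as well as hepatocytes carried them. The DN line came from a founder made by Cas9 in C57BL/6J embryos and its mice were male. The KO line was kept at another site, its mixed Sv129 origin had been crossed back to C57Bl/6, and the sex of its mice was not given in the sources used here. Study and allele therefore cannot be told apart, and only the effects within each study were tested against each other. Levels set side by side across the studies carry no test.

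Neutrophils are short-lived white blood cells made in the bone marrow under the control of granulocyte colony-stimulating factor. They reach tissue by rolling and then adhering through β2 integrins, kill microbes with granule proteins and with superoxide made by the NADPH oxidase, and carry large amounts of the calcium-binding proteins S100A8 and S100A9. Few are found in a healthy liver, and more enter it when hepatocytes are injured. Only some of the 8 genes are close to specific for the cell. Ly6g encodes the surface protein by which mouse neutrophils are usually sorted, and Mmp8 encodes neutrophil collagenase, stored in granules. Csf3r, Ncf1, Ncf4 and Itgam are used by monocytes and macrophages too, and S100a8 and S100a9 by inflammatory monocytes.

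Reads on genes lay between 5332897 and 16961379 per liver (median 15879971), with 2 livers under 10000000 reads, KO:HET animal 3 and KO:HOM animal 17. Nr1h3, the altered gene, was counted at 80.9 to 109 CPM (the reads of a gene as a share of the scaled library) in KO:WT and at 24.8 to 30.9 CPM in KO:HOM livers. The W441R allele changes the coding sequence and not the presence of the transcript, which lay at 68.8 to 77.3 CPM in DN:HOM and 82.1 to 96.1 CPM in DN:WT livers, which is -0.32 as a log2 fold change (adjusted p = 1.5e-05). Scaled by library size alone it was 0.11 (adjusted p = 0.13), where the median of all genes was 0.42, so the direction of this difference depends on the scaling. The data behind a figure of the study hold 46 of the 48 livers and leave out DN:WT animal 10 and DN:HOM animal 12. In the library labelled DN:WT animal 10, S100a8 had 16.2 CPM, Itgam 6.63 CPM and Ly6g 4 reads, the most Ly6g reads of any liver. In the library labelled DN:HOM animal 12, S100a8 had 0.769 CPM, Itgam 0.350 CPM and Mmp8 no read. Each of these libraries thus had the neutrophil gene levels of the group opposite to its label. Values below are for the 46 livers unless all 48 are named.

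S100a8 and S100a9 lie near each other on chromosome 3 on opposite strands and Mmp8 lies on chromosome 9. All 3 genes rose in DN:HOM livers, and the 250 bases before the start of each are printed here to show the region from which transcription starts. The sequences are RefSeq's for the build GRCm38.p6, 5′ to 3′ on the strand of the gene, with capitals marking matches to GAGGAAGT, the core of sites of the myeloid factor PU.1, or to TTGCNNAA, the core of C/EBP sites, on either strand.
S100a8 (chr3:90668821-90669070, plus strand): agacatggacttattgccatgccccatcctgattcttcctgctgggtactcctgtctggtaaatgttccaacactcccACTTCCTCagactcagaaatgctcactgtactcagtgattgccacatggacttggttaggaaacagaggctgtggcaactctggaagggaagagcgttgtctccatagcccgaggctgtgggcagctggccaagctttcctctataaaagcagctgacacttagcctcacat
S100a9 (chr3:90695722-90695971, minus strand): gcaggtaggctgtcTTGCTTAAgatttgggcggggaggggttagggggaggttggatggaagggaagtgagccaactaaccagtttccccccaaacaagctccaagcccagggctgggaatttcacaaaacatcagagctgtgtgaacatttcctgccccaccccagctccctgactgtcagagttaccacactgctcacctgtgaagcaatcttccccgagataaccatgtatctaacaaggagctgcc
Mmp8 (chr9:7558179-7558428, plus strand): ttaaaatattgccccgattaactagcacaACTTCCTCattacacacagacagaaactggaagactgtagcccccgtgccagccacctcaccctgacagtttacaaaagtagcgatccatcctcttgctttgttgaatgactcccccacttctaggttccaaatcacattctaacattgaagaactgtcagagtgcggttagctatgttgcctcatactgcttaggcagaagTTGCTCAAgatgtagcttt
Windows of 300 bases, running 50 bases past the start, were searched for 7 of the 8 genes. GAGGAAGT or its complement stood in the windows of S100a8, Mmp8 and Ly6g, and in 3.20% of all 32851 such windows of mouse genes. TTGCNNAA stood in those of S100a9, Mmp8 and Ly6g, and in 10.8% of all. A direct repeat of GGTCA with 5 bases between the copies, the pattern that LXR binds with its partner RXR, stood in 0 of the 7 and in 0.0761% of all. A match is a string of letters and not a measured binding site.

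In DN:HOM livers all 7 tested genes were higher than in DN:WT livers, where 29.1% of all tested genes were. Mmp8 rose 23.2-fold, S100a9 19.81-fold, S100a8 19.03-fold and Itgam 14.2-fold, while Ncf4, Ncf1 and Csf3r rose 4.50-fold, 3.97-fold and 3.90-fold. For each of the 7 genes the lowest DN:HOM liver stood above the highest DN:WT liver, which held for 18.2% of tested genes. It held for 0 of the 7 genes with all 48 livers, and for 0.0512% of tested genes. The median log2 fold change of the 7 genes was 3.82, and that of all tested genes was -0.01. Mmp8 passed the low-count filter, 0.627 CPM in at least 7 livers, only through the DN:HOM group, with 2 livers at that level elsewhere. It had to differ to be tested, so it adds nothing to the count or to the lack of overlap, and the median of the 7 includes it. The other 6 passed the filter without DN:HOM too, with rises of 3.90-fold to 19.81-fold. When all 48 livers were used 6 of the 7 passed, against 23% of all tested genes (3596 of 15621), and the median of the 7 was 1.91. All differences below come from edgeR's quasi-likelihood test, with p-values adjusted by the Benjamini-Hochberg method over all genes tested and a threshold of 0.05. Since whole liver was sequenced, fewer or more cells of a type and less or more RNA per cell cannot be told apart.

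S100a8 (ENSMUSG00000056054, chromosome 3 of GRCm39, 90567118 to 90578128) encodes a subunit of calprotectin, the main cytosolic protein of neutrophils. Its level in DN:WT livers ran from 0.416 to 1.19 CPM with a median of 0.742, and in DN:HOM livers from 8.78 to 29.7 CPM with a median of 12.5. The groups did not overlap, and 1 DN:HOM liver, animal 18, stood far above the other 6, of which the highest had 13.5 CPM. On average it had 0.740 ± 0.321 CPM in DN:WT and 14.2 ± 7.02 CPM in DN:HOM livers (SD, n = 7 each). S100a8 rose by 4.25 on the log2 scale (standard error, SE, 0.49, adjusted p = 7.2e-10). The rise was 2.18 (SE 0.61, adjusted p = 0.0037) when all 48 livers were used.

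S100a9 (ENSMUSG00000056071, chromosome 3, 90599931 to 90603071) encodes the partner subunit. Its levels were 0.425 to 1.71 CPM (median 0.625) in DN:WT and 8.67 to 31.4 CPM (median 15.9) in DN:HOM livers. Animal 18 was again the highest DN:HOM liver. It rose by 4.31 on the log2 scale (SE 0.53, adjusted p = 2.6e-09), and 2.12 (SE 0.66, adjusted p = 0.0077) with all 48 livers.

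Mmp8 (ENSMUSG00000005800, chromosome 9, 7558457 to 7568487) was close to absent from DN:WT livers. It had 6 reads in the 7 of them together, with none in 3, and 21 to 44 reads in each DN:HOM liver. In CPM the levels were 0 to 0.148 (median 0.0657) and 1.01 to 2.12 (median 1.49). Mmp8 rose by 4.54 on the log2 scale (SE 0.69, adjusted p = 3.2e-07), and 1.91 (SE 0.69, adjusted p = 0.020) with all 48 livers. As a ratio of summed reads over the scaled libraries the difference was 26.3-fold, with an exact 95% interval from 11.9 to 72.3 that covers counting error only.

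Ly6g (ENSMUSG00000022582, chromosome 15, 75027089 to 75030982) was at the limit of what this depth can show. It had 12 reads in the 7 DN:HOM livers, from 0 to 3 in each and at least 1 in 6 of them. DN:WT, DN:HET, KO:WT and KO:HET livers had 0 reads, and KO:HOM livers had 1 read, in animal 20. Set against the 3 reads that a count of 0 over the DN:WT group allows (0.0297 CPM), the observed Ly6g level in DN:HOM was 2.74-fold higher. The 12 reads of DN:HOM carry counting error too, so this value is not a lower limit of the difference. An exact two-sided permutation test of log2 CPM gave a difference of 0.66 and p = 0.0047 with 7 livers against 7. With all 48 livers, where DN:WT animal 10 brings 4 reads and DN:HOM animal 12 none, the difference was 0.41 and the exact permutation p = 0.11.

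Csf3r (ENSMUSG00000028859, chromosome 4, 125918262 to 125938236) encodes the receptor for granulocyte colony-stimulating factor. It was measured in every liver, at 2.26 to 4.03 CPM (median 3.61) in DN:WT and 7.78 to 18.1 CPM (median 14.6) in DN:HOM livers. The log2 fold change was 1.96 (SE 0.46, adjusted p = 0.00027). It was 1.12 (SE 0.48, adjusted p = 0.051) with all 48 livers, and this was the member whose call in DN:HOM was lost.

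Ncf1 and Ncf4 encode p47phox and p40phox, cytosolic parts of the NADPH oxidase. Ncf1 (ENSMUSG00000015950, chromosome 5, 134248907 to 134258479) ran from 2.43 to 5.65 CPM (median 3.75) in DN:WT and from 13.4 to 18.2 CPM (median 15.6) in DN:HOM livers. Ncf4 (ENSMUSG00000071715, chromosome 15, 78128982 to 78146784) ran from 1.75 to 3.48 CPM (median 2.07) and from 6.94 to 12.5 CPM (median 10.9). The groups did not overlap for either gene. The log2 fold change of Ncf1 was 1.99 (SE 0.41, adjusted p = 6.2e-05), and that of Ncf4 was 2.17 (SE 0.40, adjusted p = 8.8e-06). They were 1.39 (adjusted p = 0.0074) and 1.27 (adjusted p = 0.020) with all 48 livers. Ncf1 overlaps exons of Gtf2ird2 on the other strand, so reads were taken by strand.

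Itgam (ENSMUSG00000030786, chromosome 7, 127661808 to 127717753) encodes CD11b, the α chain of the integrin Mac-1. It had 0.212 to 0.812 CPM (median 0.337) in DN:WT and 5.11 to 7.13 CPM (median 5.52) in DN:HOM livers, with a wide gap between the groups. Itgam rose by 3.82 on the log2 scale (SE 0.61, adjusted p = 6.7e-07), and 2.05 (SE 0.64, adjusted p = 0.0080) with all 48 livers. Itgam shares exons on the same strand with Gm49368, a model that had 0 to 2 reads per liver. Reads on shared exons may have been left uncounted, so the level of Itgam is uncertain.

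**Figure D1:**
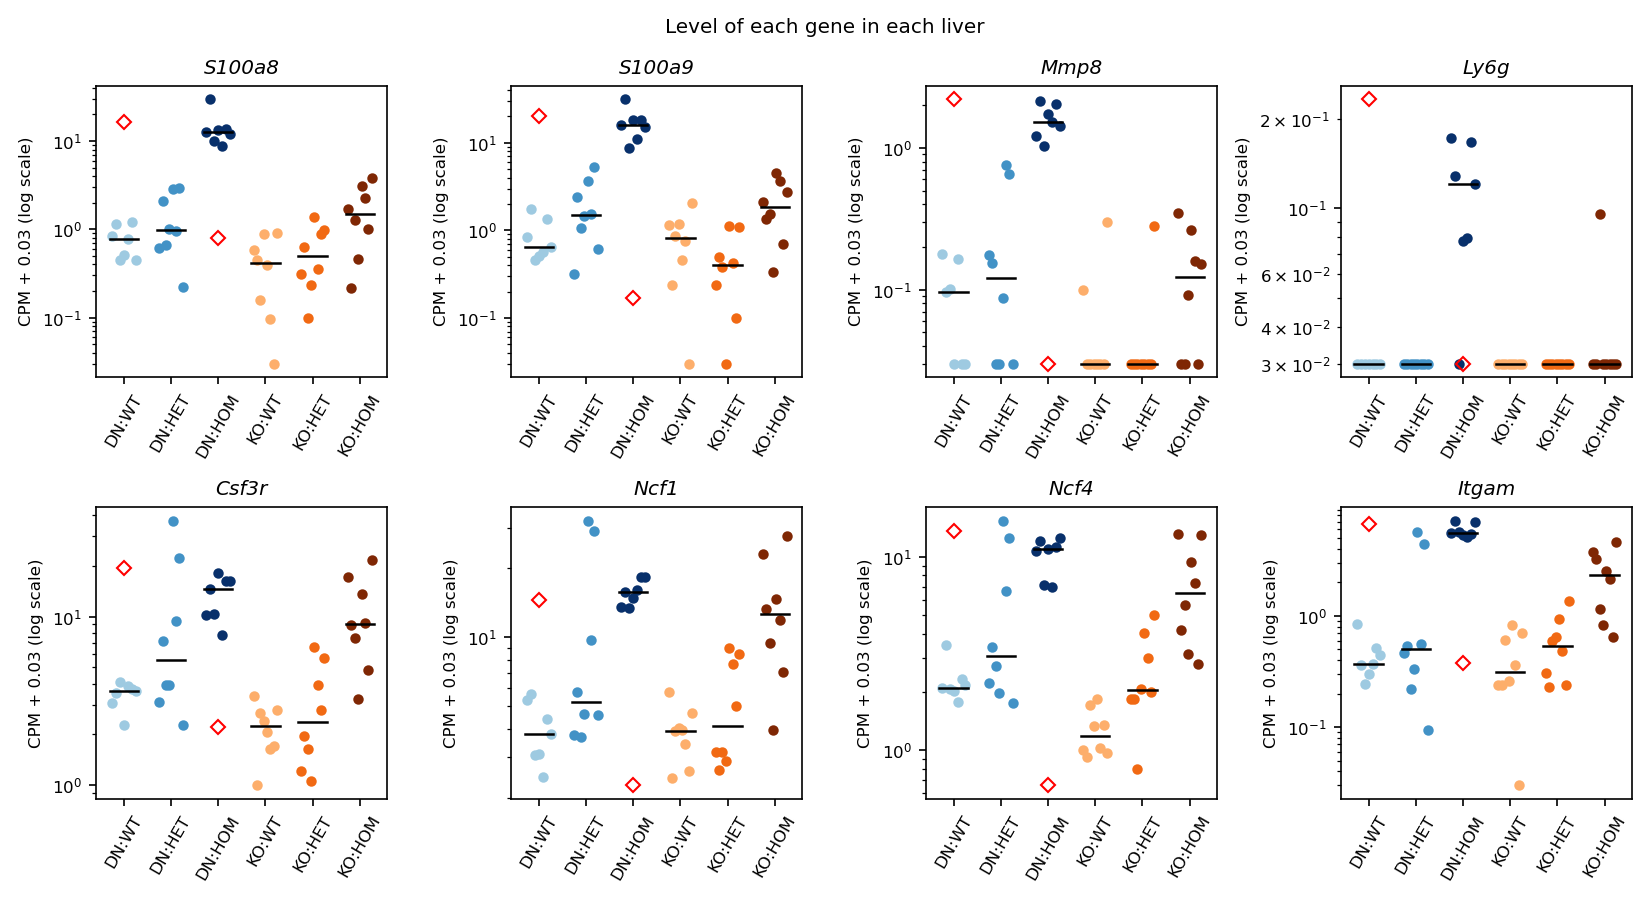
Level of the 8 genes in each liver, in CPM plus 0.03 on a log axis, by genotype group. Filled points are the 46 livers, black bars their medians, and red diamonds DN:WT animal 10 and DN:HOM animal 12. Among the 46 livers S100a8, S100a9 and Mmp8 separate DN:HOM from every other group, with medians of 12.5, 15.9 and 1.49 CPM. The red diamonds do not follow this, with S100a8 at 16.2 CPM in DN:WT animal 10 and 0.769 CPM in DN:HOM animal 12. Mmp8 passed the low-count filter only through DN:HOM. Csf3r, Ncf1 and Ncf4 in KO:HOM livers reach the DN:HOM range.

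In KO:HOM livers 6 of the 7 tested genes were higher than in KO:WT livers, where 11.5% of all tested genes were. Only Ncf4 had no overlap between the groups, which held for 2.09% of tested genes. The genes fell in another order than in DN:HOM livers. Itgam, Ncf4 and Csf3r rose most, by 5.94-fold, 5.90-fold and 4.94-fold, then S100a8 by 4.37-fold, Ncf1 by 3.62-fold and S100a9 by 2.61-fold. Mmp8 did not pass the threshold. Among all 48 livers 4 of the 7 passed, against 8.79% of all tested genes. The KO livers are the same in both sets, and the standard error, which draws on all groups, was 0.52 for S100a8 with 46 livers and 0.75 with 48.

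S100a8 was at 0 to 0.872 CPM (median 0.387) in KO:WT and 0.189 to 3.81 CPM (median 1.45) in KO:HOM livers, where 6 of 8 livers stood above every KO:WT liver. Its log2 fold change was 2.13 (SE 0.52, adjusted p = 0.0023), and 2.12 (adjusted p = 0.052) with all 48 livers. S100a9 was at 0 to 2.01 CPM (median 0.787) and 0.309 to 4.50 CPM (median 1.81), and only 4 of 8 KO:HOM livers stood above every KO:WT liver. Its log2 fold change of 1.38 (SE 0.51, adjusted p = 0.047) lay at the threshold. It failed with all 48 livers (adjusted p = 0.24), with DESeq2 (0.061), with no low-count filter (0.067) and with the KO livers alone (0.078). Leaving out any 1 of KO:WT animals 1, 23, 32, 33 and 34 or KO:HOM animals 8, 11, 26 and 27 also ended the call, with adjusted p up to 0.14 and a log2 fold change of 1.12 without KO:HOM animal 26. Of 46 such fits 29 kept it.

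Mmp8 had 5 reads in the 8 KO:WT and 14 reads in the 8 KO:HOM livers, and 3 of the latter had none. The highest levels were 0.268 CPM in KO:WT and 0.319 CPM in KO:HOM, so the groups overlapped throughout. The log2 fold change was 1.30 (SE 0.93, adjusted p = 0.36). The ratio of summed reads over the scaled libraries was 2.75, with an exact 95% interval from 0.937 to 9.76 for counting error alone, so a change of this size could have been missed at this depth.

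Csf3r rose from 0.965 to 3.33 CPM (median 2.20) in KO:WT to 3.22 to 21.6 CPM (median 9.0) in KO:HOM livers, with a log2 fold change of 2.31 (SE 0.45, adjusted p = 0.0002). Ncf1 rose from 2.41 to 5.76 CPM (median 3.89) to 3.90 to 27.6 CPM (median 12.5), with 1.86 (SE 0.39, adjusted p = 0.00051). For each, 7 of 8 KO:HOM livers stood above every KO:WT liver, and animal 22 did not. Ncf4 rose from 0.896 to 1.81 CPM (median 1.15) to 2.76 to 13.003 CPM (median 6.44), with 2.56 (SE 0.40, adjusted p = 1.3e-05). Itgam rose from 0 to 0.795 CPM (median 0.282) to 0.613 to 4.55 CPM (median 2.32), with 2.57 (SE 0.59, adjusted p = 0.0012). KO:HOM livers spread far more widely than DN:HOM livers for Ncf1, with SDs of 7.97 and 1.98 CPM. All 4 calls held with all 48 livers (adjusted p = 0.0019, 0.0033, 0.00052 and 0.014).

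The effect of being homozygous differed between the studies for 2 of the 7 genes, both with the higher effect in the DN study. Of all tested genes 16.5% were higher and 18.3% lower in this sense. A count of 2 in 7 is not far from these shares, so it is no result about the members as a set. For S100a8 the DN effect exceeded the KO effect by 2.12 on the log2 scale (SE 0.74, adjusted p = 0.022), and for S100a9 by 2.92 (SE 0.73, adjusted p = 0.0015). For Mmp8 the difference was 3.24 (SE 1.48, adjusted p = 0.084), which missed the threshold with a wide error. Since Mmp8 had to be high in DN:HOM to be tested, this difference is a description and supports no conclusion. For Itgam it was 1.25 (SE 0.87, adjusted p = 0.28). For Csf3r it was -0.34 (SE 0.63, adjusted p = 0.71), for Ncf1 0.13 (SE 0.56, adjusted p = 0.88) and for Ncf4 -0.39 (SE 0.55, adjusted p = 0.62). With errors of this size a difference of 2-fold could have been missed, so equal effects of these genes are not shown. The call for S100a8 was lost without KO:WT animal 31 (adjusted p = 0.053) or KO:WT animal 5 (adjusted p = 0.063). With all 48 livers 0 of the 7 genes passed, against 4.05% of all tested genes, and 0 had an unadjusted p under 0.05 in edgeR. The differences were then 0.06 for S100a8 (adjusted p = 0.99) and 0.74 for S100a9 (adjusted p = 0.67), so this result rests on leaving out DN:WT animal 10 and DN:HOM animal 12. For Ncf1 and Itgam the difference turned to -0.47 (adjusted p = 0.66) and -0.52 (adjusted p = 0.76). Without DN:WT animal 10 alone S100a9 passed and S100a8 had 1.95 (adjusted p = 0.073), and without DN:HOM animal 12 alone neither passed. DESeq2 called 2 genes with the 46 livers.

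**Figure D2:**
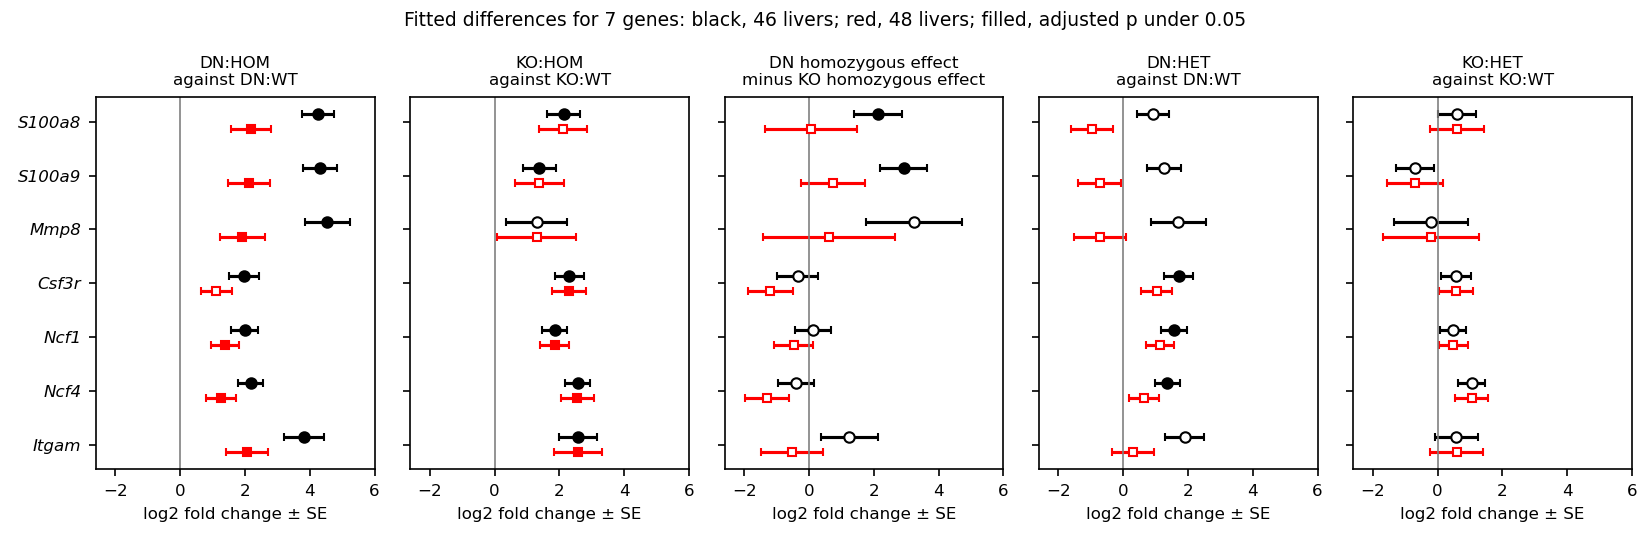
Fitted log2 fold change of the 7 tested genes with its standard error in each comparison. Black circles are the 46 livers and red squares all 48, and filled symbols have an adjusted p under 0.05. In the DN:HOM panel S100a8, S100a9 and Mmp8 lie between 4.25 and 4.54 with 46 livers and between 1.91 and 2.18 with 48, and in the KO:HOM panel both sets give nearly the same values.

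Heterozygous livers were compared next. Of the 7 tested genes 3 were higher in DN:HET than in DN:WT livers, where 2.23% of all tested genes were: Csf3r with a log2 fold change of 1.71 (SE 0.45, adjusted p = 0.030), Ncf1 with 1.56 (SE 0.41, adjusted p = 0.028) and Ncf4 with 1.36 (SE 0.39, adjusted p = 0.048). Itgam had 1.89 (SE 0.61, adjusted p = 0.091). S100a8, S100a9 and Mmp8 had 0.92, 1.25 and 1.70, with adjusted p between 0.25 and 0.44, and turned to -0.96, -0.73 and -0.73 with all 48 livers (adjusted p of 0.94 or more). With all 48 livers 0 of the 7 passed in edgeR and 2 had an unadjusted p under 0.05, while 0.250% of all tested genes passed.

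The liver by liver values show 2 high animals. In DN:HET animals 22 and 4 Csf3r had 37.1 and 22.4 CPM, above the highest DN:HOM liver, while the other 6 had 2.25 to 9.38 CPM. Ncf1 had 32.1 and 28.9 CPM in these livers, also above every DN:HOM liver, and 3.65 to 9.71 CPM in the others. Itgam had 5.62 and 4.38 CPM against 0.0642 to 0.528 CPM. S100a8 in the same livers had 2.84 and 2.88 CPM, and S100a9 3.59 and 5.25 CPM, which is below every DN:HOM liver. Animal 29 stood above every DN:WT liver for Csf3r, Ncf1, Ncf4 and Mmp8, animal 16 for S100a8, S100a9, Csf3r and Ncf1, and animals 1, 8, 14 and 20 for none of the 7 genes.

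The heterozygous calls did not survive the loss of animal 22, which left log2 fold changes of 1.12 for Csf3r (adjusted p = 0.28), 1.14 for Ncf1 (0.23) and 0.97 for Ncf4 (0.33), nor of animal 4, which left 1.49 (0.13), 1.23 (0.17) and 1.11 (0.22). Leaving out 1 DN:WT liver was often enough too: animals 2, 7, 21 and 28 for all 3 genes, animals 5 and 13 for Csf3r and Ncf4, and DN:HET animal 29 for Ncf4. Without one of these DN:WT livers the sizes barely moved, with 1.63 to 1.75 for Csf3r, 1.47 to 1.55 for Ncf1 and 1.31 to 1.37 for Ncf4. The call for Ncf4 held in 14 of 46 such fits. Without DN:HET animal 1, 8 or 20, Itgam passed instead (adjusted p = 0.041, 0.033 and 0.047). Over all tested genes, 350 of 15711 were higher in DN:HET, against 19 of 15681 without animal 22 and 27 of 15688 without animal 4. Animals 22 and 4 were also the DN:HET livers with the highest sums of the 16 monocyte and macrophage markers listed for this work (1758 and 1701 CPM, others 318 to 836), of 6 Kupffer cell markers (615 and 574 CPM, others 141 to 349) and of 7 T and NK cell markers (24.2 and 21.7 CPM, others 3.52 to 12.02). The part of these cells in the result was not tested.

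**Figure D3:**
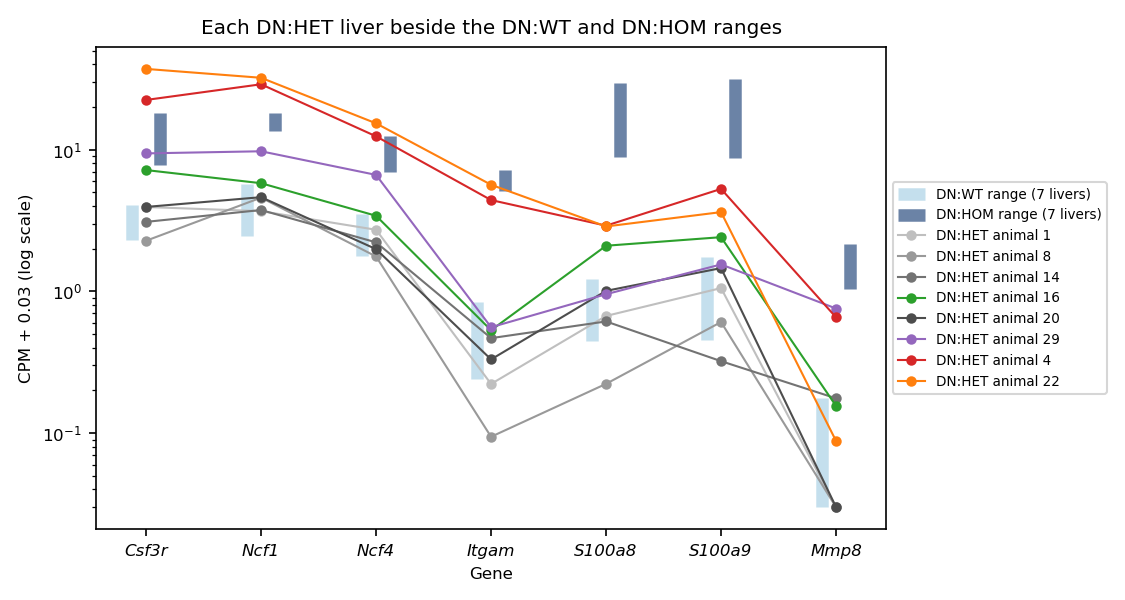
Levels of 7 genes in each of the 8 DN:HET livers, joined by lines, in CPM plus 0.03 on a log axis, with bars for the range of 7 DN:WT and 7 DN:HOM livers. Animals 4 and 22 (red and orange) lie above the DN:HOM bar for Csf3r and Ncf1 and below it for S100a8, S100a9 and Mmp8.

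In KO:HET livers 0 of the 7 genes passed the test in edgeR or in DESeq2, and 1, Ncf4, had an unadjusted p under 0.05 in edgeR. The share of all tested genes was 0.0127% with 46 livers and 0.0128% with 48. Ncf4 was at 0.770 to 4.98 CPM (median 2.01), with 6 of 8 livers above every KO:WT liver, a log2 fold change of 1.05 (SE 0.41) and an adjusted p of 0.65. KO:HET animals 4 and 9 stood above every KO:WT liver for S100a8, Csf3r, Ncf1, Ncf4 and Itgam. Csf3r had 6.61 and 5.68 CPM in them, against 1.02 to 3.89 CPM in the other 6, so these livers overlapped the lower KO:HOM livers.

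Ordered by the median over the 6 groups, DN:HOM was highest and KO:HOM next for each of the 7 tested genes. For S100a8, S100a9, Mmp8 and Itgam the range of DN:HOM did not overlap that of KO:HOM, and for Csf3r, Ncf1 and Ncf4 it did. The share of all tested genes without such overlap was not computed, so this is no result about the members. Mmp8 passed the low-count filter only through DN:HOM, so it had to be high there. With DN:HOM animal 12 included the ranges overlapped for S100a8, S100a9, Mmp8 and Itgam too. Below KO:HOM the ranges of all neighbouring groups overlapped for every member. The order across studies mixes site and allele and carries no test.

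The members also varied together from liver to liver within groups. After the mean of each group was subtracted from log2 CPM, all 21 pairs of the 7 genes were positively correlated over 46 livers, with Pearson's r from 0.45 to 0.91 and Spearman's rho from 0.38 to 0.86. Of all pairs of the 15711 tested genes, treated in the same way, 49.7% had a positive rho and 3.93% a rho of at least 0.38. The highest adjusted p over the 21 pairs was 0.021 for r and 0.017 for rho (two-sided permutation tests, 100000 shuffles within groups). The closest pair was Csf3r and Ncf1 (r = 0.91, rho = 0.86, both with permutation p = 1e-05, the smallest that the shuffles can give). Pairs among Csf3r, Ncf1, Ncf4 and Itgam had rho of 0.62 to 0.86. S100a8 and S100a9, whose proteins form a heterodimer, had r = 0.73 and rho = 0.75 (permutation p = 1e-05 for each). Pairs with Mmp8, the gene with the fewest reads of the 7, had rho of 0.38 to 0.54.

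Leaving out the 2 livers farthest from the median of the first gene of a pair changed r to between 0.39 and 0.89. Within the 22 DN livers r ran from 0.36 to 0.93, and within the 24 KO livers from 0.34 to 0.95, with 0.87 and 0.95 for Csf3r and Ncf1. DN:HET animals 4 and 22 enter the DN values.

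**Figure D4:**
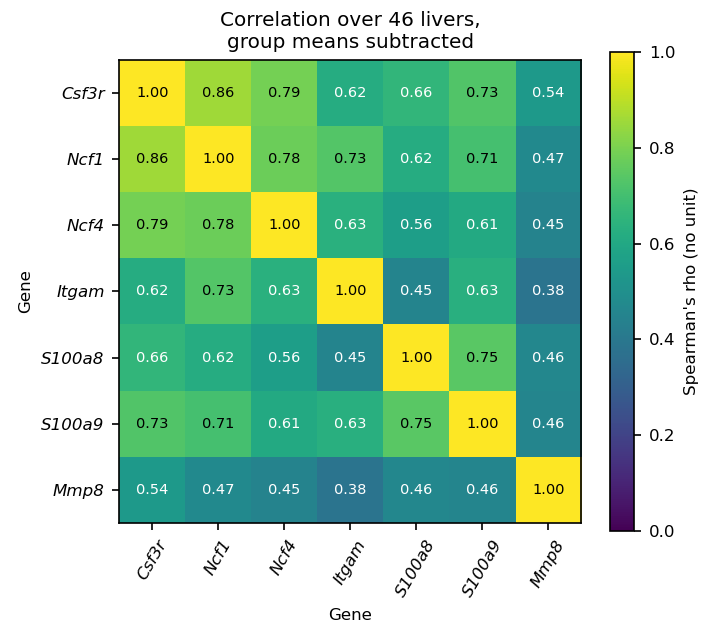
Spearman's rho between each pair of 7 genes over 46 livers, after the group mean was subtracted from log2 CPM. The block of Csf3r, Ncf1, Ncf4 and Itgam holds values of 0.62 to 0.86, and the row of Mmp8 values of 0.38 to 0.54.

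Among 13245 genes with a mean of at least 1 CPM, the 3 whose deviations from the group means were most like those of each member over the same 46 livers were found by Spearman's rho. The genes nearest to Csf3r were Csf2ra, which encodes a chain of the receptor for granulocyte-macrophage colony-stimulating factor (rho = 0.94), Fxyd5 (0.92) and Adcy7 (0.92). Those nearest to Ncf1 were Itgb2, the β2 integrin chain (0.92), Marchf1 (0.91) and Ptprc, which encodes the pan-leukocyte protein CD45 (0.91). Among the genes nearest to Ncf4 were Pkm (0.86) and Msn (0.85). Itgam was nearest to Slc2a6 (0.78), Arhgap15 (0.76) and Prkcd (0.75).

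S100a9 was nearest to Icam1, whose product is a ligand of β2 integrins (0.83), Tnf (0.82) and Napsa (0.81). S100a8 was nearest to Cd52 (0.77), Coro1a (0.77) and Calhm6 (0.77). The closest genes to Mmp8 were further away: Grb10 (0.64), Igkc (0.63) and Akr1b8 (0.61). These are descriptions of 46 livers that share groups and diet, with the largest of many values shown, and no test was made.

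The other genes of neutrophils show which of their products could be seen in these livers. In a list of 17 further genes used as neutrophil markers, 16 were matched and 9 passed the filter, 3 of them, Retnlg, Cxcr2 and Cd177, only through DN:HOM. A gene tested only through a single group had to be high there. In this and the following lists it adds nothing to that group's count or to a count of larger effects in that study. For reading the counts of this and the following lists, 29.1% of all tested genes were higher and 30% lower in DN:HOM, 11.5% and 7.87% in KO:HOM, and 2.23% higher in DN:HET. Over all 48 livers the shares were 23% and 25%, 8.79% and 4.12%, and 0.250%. In DN:HOM livers 5 of the 9 were higher, Retnlg, Cxcr2 and Cd177 among them, and 2 lower. In KO:HOM livers 3 were higher and 0 lower. In DN:HOM 2 were higher and 2 lower with all 48 livers, and in KO:HOM 2 were higher, so the DN:HOM counts were then near the shares of all genes. The effects differed between the studies for 4 of the 9, with 1 higher in the DN study, Retnlg, and 3 lower, Fpr1, Fpr2 and Wfdc21, and with all 48 livers for the same 3 lower genes alone. Of all tested genes 16.5% were higher and 18.3% lower in this sense with 46 livers, and 4.05% and 6.42% with 48. Retnlg, which encodes resistin-like γ of mature neutrophils, was at 0 to 0.212 CPM in DN:WT and 1.86 to 4.37 CPM in DN:HOM livers, with a log2 fold change of 4.51 (adjusted p = 3.6e-10). In KO:HOM livers it stayed at 0 to 0.292 CPM, with 0.44 (adjusted p = 0.70), and the difference between the studies was 4.07 (SE 0.92, adjusted p = 0.00054). That difference was 1.75 (adjusted p = 0.36) with all 48 livers. Since Retnlg had to be high in DN:HOM to be tested, its rise there and this difference are descriptions and support no conclusion.

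Cxcr2, the receptor that draws neutrophils towards CXC chemokines, rose by 3.17 in DN:HOM livers on the log2 scale (adjusted p = 0.0001) and Cd177, a neutrophil surface protein, by 2.82 (adjusted p = 0.00021). Retnlg and Cd177 were the 2 of these genes that passed with all 48 livers in DN:HOM (adjusted p = 0.0030 and 0.0055), and Cxcr2 did not (0.076). Clec4e, a receptor that macrophages also carry, rose by 4.76 in DN:HOM (adjusted p = 0.00026, and 0.061 with all 48 livers) and by 4.65 in KO:HOM livers (0.00021). Fpr1 and Fpr2 encode formyl peptide receptors. Fpr1 fell by 1.57 in DN:HOM (adjusted p = 0.0030) and rose by 1.16 in KO:HOM livers (adjusted p = 0.038), and Fpr2 had 0.77 (adjusted p = 0.37) and 3.46 (adjusted p = 0.00031). Wfdc21, the most abundant gene of the list, was at 194 to 308 CPM in DN:WT and 133 to 197 CPM in DN:HOM livers, and fell by 0.62 (adjusted p = 2.8e-05), while KO:HOM livers had 0.01 (adjusted p = 0.98). Scaled by library size alone it had -0.19 in DN:HOM (adjusted p = 0.15), so this call depends on the scaling. Summed over the list, the level was 157 to 213 CPM in DN:HOM and 201 to 317 CPM in DN:WT livers. Wfdc21 made up most of this sum, so the sum does not show the direction of the other genes of the list. The median log2 fold change of the 9 tested genes was 2.18 in DN:HOM. Ly6g was not the sole defining gene near 0: Mrgpra2b and Stfa2l1 had at most 9 reads in any liver.

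Of 11 granule genes 9 were tested, 4 of them, Ltf, Camp, Ngp and Pglyrp1, only through DN:HOM. These 4 had to be high there to be tested. Their values in DN:HOM are descriptions and add nothing to the count of higher genes. In all 7 were higher and 1 lower in DN:HOM livers, and 5 were higher in KO:HOM livers (4 with all 48 livers). The effects differed between the studies for 5 of the 9, with 4 higher and 1 lower in the DN study, and for 0 of the 9 with all 48 livers in edgeR, where 16.5% and 18.3% of all tested genes differed with 46 livers. Secondary granules are made late in maturation, and of their genes Ltf (log2 fold change 5.91, adjusted p = 1.3e-10) and Ngp (5.17, 1.2e-10) rose in DN:HOM, against 2.27 (adjusted p = 0.015) and 3.30 (0.0018) in KO:HOM. Camp had 0 to 0.0694 CPM in DN:WT and 0.545 to 3.20 CPM in DN:HOM livers (adjusted p = 3.6e-10), and did not pass in KO:HOM (0.059). Camp and Ltf had 1 and 4 reads in all DN:WT livers together, so the size of their changes is loosely fixed. The effects differed between the studies for Camp (adjusted p = 0.017) and Ltf (0.017) and did not pass for Ngp (0.39). All 3 were tested only through DN:HOM, so these differences are descriptions and support no conclusion. None of these 3 differences passed with all 48 livers (0.63, 0.74 and 0.79), while the rises in DN:HOM did (adjusted p = 0.0001 for Camp, 0.00024 for Ltf and 0.00054 for Ngp). Among primary granule genes, made by precursors in the marrow, Mpo had at most 10 reads and Ctsg at most 2 in any liver. Not all were this low: Prtn3 reached the filter level of 0.627 CPM in 28 livers, and its change is not reported here. Elane had 0.486 to 1.46 CPM in DN:WT and 0 to 0.344 CPM in DN:HOM livers, and fell by 2.41 on the log2 scale (adjusted p = 1e-05). Lcn2, which injured hepatocytes make in large amounts as well, was at 9.38 to 59.1 CPM in DN:WT and 313 to 1037 CPM in DN:HOM livers.

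The partners of Ncf1, Ncf4 and Itgam moved with them. All 5 NADPH oxidase genes listed for this work, Ncf1 and Ncf4 included, were higher in DN:HOM, KO:HOM and DN:HET livers. In DN:HET their summed level was 245 and 235 CPM in animals 22 and 4, and 29.3 to 89.2 CPM in the other livers. Leaving out either animal ended the DN:HET calls of Ncf1 and Ncf4. Cybb, the membrane subunit gp91phox, had a log2 fold change of 3.40 in DN:HOM and 2.75 in KO:HOM, and Cyba, its partner p22phox, 2.77 and 1.95. For 0 of the 5 did the effects differ between the studies. Of the β2 integrin genes 4 of 5 were tested, and all 4, Itgam included, were higher in both homozygous comparisons. Itgax, which encodes CD11c of macrophages and dendritic cells, had 4.65 and 3.29, and Itgb2, the chain that pairs with CD11b, 2.49 and 2.32. These calls held with all 48 livers for both homozygous comparisons and for none of the 2 lists in DN:HET.

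Of 14 genes that draw neutrophils or lengthen their life 9 were tested, Cxcl5 only through DN:HOM, and 7 were higher in DN:HOM and 7 in KO:HOM livers (4 and 5 with all 48). The chemokine Cxcl1 rose by 2.23 and 1.15 on the log2 scale, Cxcl2 by 2.09 and 1.54 and Cxcl5 by 4.29 and 2.01, and Csf1, the macrophage growth factor, by 1.64 and 1.14. C5ar1, the receptor for complement C5a, rose in both (adjusted p = 4e-11 and 1.7e-05), and was the sole gene of the list whose effects differed between the studies, by 1.49 (adjusted p = 0.016). That difference was -0.17 (adjusted p = 0.91) with all 48 livers. Csf3, which encodes the ligand of the Csf3r product, had at most 2 reads in 1 liver, and Il17a and Cxcl15 had 0 reads in all 48 livers. With all 48 livers Cxcl1 did not pass in DN:HOM (adjusted p = 0.21) or KO:HOM (0.14), nor did Cxcl5 (0.075 and 0.16), and Il1b was lost in DN:HOM (0.063). Of 8 myeloid transcription factors 7 were tested. In DN:HOM 4 were higher and 1 lower, with Spi1, which encodes PU.1, at 1.71 and Cebpa at -0.73, and in KO:HOM 3 were higher and 1 lower (0 lower with all 48 livers).

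**Figure D5:**
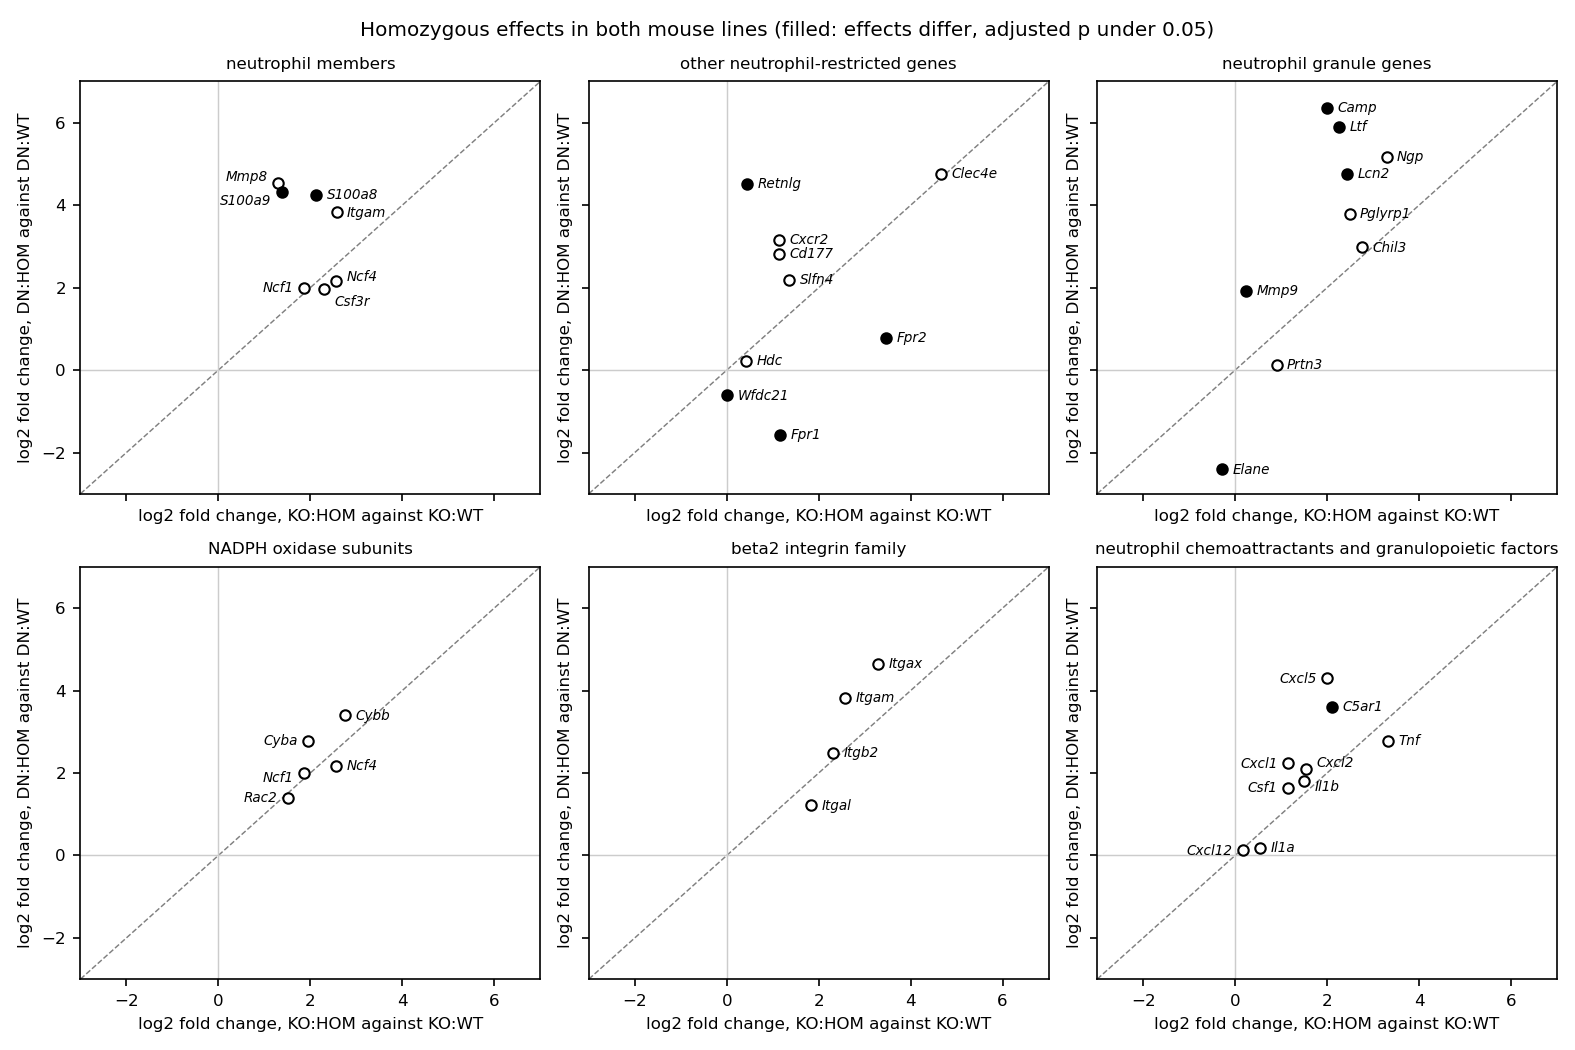
Log2 fold change in DN:HOM (vertical) against that in KO:HOM livers (horizontal) for the tested genes of 6 lists, with the line of equal change dashed. Filled points have effects that differ between the studies at an adjusted p under 0.05. S100a8, S100a9, Retnlg, Camp and Ltf are among those above the line, and Fpr1 and Fpr2 among those below it. Retnlg, Camp and Ltf passed the low-count filter only through DN:HOM, so they had to be high there to appear. The NADPH oxidase and β2 integrin genes are open points, with Itgax at 4.65 and 3.29 and Itgb2 at 2.49 and 2.32.

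Markers of other cells moved with these groups and are given for comparison. Summed over 16 monocyte and macrophage markers, of which 14 were higher in DN:HOM and 14 in KO:HOM (12 in each with all 48 livers), the level was 313 to 494 CPM in DN:WT, 1468 to 2303 CPM in DN:HOM, 304 to 530 CPM in KO:WT and 562 to 1879 CPM in KO:HOM livers. Macrophages also express Csf3r, Ncf1, Ncf4 and Itgam, and their part in the results was not tested. All 6 Kupffer cell markers were lower in DN:HOM and 4 in KO:HOM (6 and 3 with all 48 livers), with sums of 140 to 264 CPM in DN:WT, 1.71 to 3.52 CPM in DN:HOM, 82.8 to 303 CPM in KO:WT and 22.5 to 69.4 CPM in KO:HOM livers. DN:HET animals 4 and 22, by contrast, had high sums of both lists.

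Of 7 T and NK cell markers 6 were tested, Ncr1 only through DN:HOM, with 4 higher in DN:HOM, 5 in KO:HOM and 4 in DN:HET. Among all 48 livers 5 were tested, with 1 higher in DN:HOM, 5 in KO:HOM and 2 in DN:HET. Of 5 dendritic cell markers 3 and 4 were higher (3 and 2 with all 48), and of 5 eosinophil markers 2 were tested, Siglecf only through DN:HOM and Ccr3 only through KO:HOM, and both were higher in each comparison (2 and 1 with all 48). Of 5 basophil and mast cell markers 1 was tested and did not pass in either, Mcpt8 having at most 3 reads in any liver. The median log2 fold change of 4 B cell markers was -0.77 in DN:HOM and 0.19 in KO:HOM, and 0 of the 4 passed in either. Of 8 erythroid and platelet markers 1 was higher, Pf4 of platelets, and 2 lower in DN:HOM, Alas2 and Hbb-bs, which is no more than the 30% of all genes that were lower, and in KO:HOM Pf4 was higher and Alas2 lower. With all 48 livers 1 was lower in DN:HOM and 0 in KO:HOM. The red cell gene Hbb-bs, which reflects blood left in the tissue, had -0.85 (adjusted p = 0.037) and -0.17 (adjusted p = 0.76). Of 7 hepatocyte markers 6 were lower in DN:HOM and 5 in KO:HOM (5 and 2 with all 48), with Alb at -1.14 and -0.43. Scaled by library size alone, Hbb-bs (-0.41, adjusted p = 0.29) and the hepatocyte genes Apoa1 (-0.17, 0.24) and Tat (-0.41, 0.17) no longer passed in DN:HOM.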

How the data were processed

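RNA of whole liver from 48 mice was sequenced as stranded poly(A) libraries. The authors aligned the reads with STAR 2.5.0a to GRCm39, per the labels and the methods, and deposited raw read counts per gene for 48 livers. Counts of the gene's strand were used, since this column held 6.97 to 8.62 times the reads of the opposite one. Reads assigned to no gene (24.0% to 35.0% of reads) stayed out of library sizes. Of 55416 identifiers 54749 were matched to a symbol. The members and lists were chosen with earlier results of these data known.

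The 46 livers analysed were found by matching 5 genes of the study's source data to the counts. Their counts were fitted with edgeR 4.0.16 in R 4.3.3 (filterByExpr, TMM scaling, 1 mean per group, glmQLFit and glmQLFTest), with Benjamini-Hochberg adjustment over 15711 genes (15621 with 48 livers) and a threshold of 0.05. CPM used the TMM-scaled library size, and log2 CPM a prior count of 2. A standard error is the log2 fold change divided by the root of the F statistic. Ly6g, dropped by the filter, had an exact permutation test. Pairs of genes were tested with 100000 shuffles within groups. The fit was tested on simulated counts.

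Named genes are the 8 members, Nr1h3, genes of 16 lists (128 entries, 127 matched) and the 3 genes most like each member by Spearman's rho, of which some are not reported here. Alternatives were all 48 livers, DESeq2 1.42.0, upper-quartile scaling, library size alone, no low-count filter, unstranded counts, each study fitted alone, livers over 10000000 reads, and leaving out each liver in turn. Every animal is a separate mouse. Intervals and floors cover counting error only. Promoter sequences are RefSeq's on GRCm38.p6, a build other than that of the counts, and no coordinates were converted.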

Additional observations from a re-analysis of the deposited data

Results flagged for a closer look

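In 6 of the 44 groups of values tested, 1 liver lay far from the rest of its group. Chance gives this in about 1 in 20 groups of normally distributed values. Levels with few reads are not so distributed, and the groups of different genes share livers, so no excess is claimed. In 2 of the 6 all other livers had 0 reads, so that any read met the criterion. S100a8 had 29.7 CPM in DN:HOM animal 18 (others 8.78 to 13.5), and S100a9 had 31.4 CPM in the same liver (others 8.67 to 18.3). Ncf4 had 3.48 CPM in DN:WT animal 17 (others 1.75 to 2.30). The remaining 3 rest on very few reads: Mmp8 had 0.268 CPM in KO:WT animal 5 (others 0 to 0.0693) and 0.252 CPM in KO:HET animal 9 (others 0), and Ly6g had 0.0657 CPM, a single read, in KO:HOM animal 20 (others 0).

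The homozygous effect was larger in the DN study for 2 of the 7 tested genes, where 16.5% of all tested genes were higher and 18.3% lower. For S100a8 the difference was 2.12 on the log2 scale (adjusted p = 0.022 in edgeR), and for S100a9 it was 2.92 (adjusted p = 0.0015). The call for S100a8 was lost without KO:WT animal 31 (adjusted p = 0.053) or KO:WT animal 5 (adjusted p = 0.063). With all 48 livers the differences were 0.06 (adjusted p = 0.99) and 0.74 (adjusted p = 0.67). All 7 DN:HOM livers stood above every DN:WT liver for both genes, against 6 of 8 KO:HOM livers above every KO:WT liver for S100a8 and 4 of 8 for S100a9. No overlap at all was found for 18.2% of tested genes in DN:HOM and 2.09% in KO:HOM.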

How the results depend on the processing

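The choice of livers moved most. In DN:HET 3 of 7 genes passed with the 46 livers, and 0 passed with all 48, with each study fitted alone, with all 48 without DN:WT animal 10 alone, or with all 48 without DN:HOM animal 12 alone. The log2 fold changes of Csf3r, Ncf1 and Ncf4 were 1.74, 1.58 and 1.38 with each study alone and 1.71, 1.56 and 1.36 without DN:WT animal 10 alone, so in these 2 settings the adjusted p moved and not the size. For the difference between the studies the count fell from 2 to 0 with all 48 livers, to 1 without DN:WT animal 10 alone and to 0 without DN:HOM animal 12 alone. These last 2 settings were chosen after seeing the data. Ly6g in DN:HOM had a log2 difference of 0.41 with all 48 livers (exact permutation p = 0.11), and 1.63 with a prior count of 0.5, also added later (exact permutation p = 0.0047). Leaving out each liver in turn gave 7 to 7 genes past the threshold in DN:HOM, 5 to 6 in KO:HOM, 0 to 4 in DN:HET, 0 to 0 in KO:HET and 1 to 2 for the difference. The other settings, all 48 livers included, gave 6 to 8 genes in DN:HOM, 4 to 6 in KO:HOM and 0 to 4 in DN:HET, with the 6 and the 4 from all 48 livers. No called value of the 7 members changed sign. Some values that did not pass turned. In DN:HET with all 48 livers S100a8, S100a9 and Mmp8 had -0.96, -0.73 and -0.73, and without DN:HOM animal 12 alone -0.98, -0.75 and -0.74. The difference between the studies with all 48 livers was -0.47 for Ncf1 and -0.52 for Itgam. Without DN:HOM animal 12 alone these were -0.30 and -0.35, and without DN:WT animal 10 alone Ncf1 had -0.027. Leaving out each liver in turn gave -0.025 to 0.36 for this difference of Ncf1, and -2.67 to 1.30 for Mmp8 in KO:HET, which had 4 reads there. The cause of these turns was not tested. In DN:HET Ncf4 was lost with no low-count filter (adjusted p = 0.057), unstranded counts (0.054) and without livers under 10000000 reads (0.053), and DESeq2 called Itgam (0.043). All 21 pairs passed with a prior count of 0.5 and with all 48 livers. Scaling by library size alone raised the median log2 fold change of all genes to 0.42 in DN:HOM and 0.31 for the difference, and turned 4579 higher and 4713 lower genes in DN:HOM into 9283 and 1738. The 7 members passed in DN:HOM under it too, while Nr1h3 turned from -0.32 to 0.11 (adjusted p = 0.13). No paired analysis was possible because each animal number belongs to a single mouse within a study. Depth limits Ly6g and Mmp8, which had few or no reads outside DN:HOM.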
